A study of Gallus gallus with 48 samples.

Results

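The genes described here encode proteins through which cells hold on to one another or to the matrix and through which growing axons and vessels are steered. They were chosen by gene symbol, among genes that the study lists as positively selected in its chicken breeds. The symbol had to begin with the prefix of a cadherin, protocadherin, claudin, integrin, neurexin, neuroligin, contactin or contactin-associated protein, or CADM or NCAM adhesion molecule. The other prefixes were those of ephrins, Eph receptors, semaphorins, plexins, Slit, Robo, UNC5, teneurins (ODZ) and receptor tyrosine phosphatases. CAD19 was added as a cadherin. The rule found 37 of the 17108 genes in the table, with 36 different symbols, since NRXN3 stands for 2 separate gene models. Symbols were known for 1184 genes, those that the study lists in a supplementary file, so the families are incomplete, and other genes known to belong to them enter only through a list of partner genes. The prefixes also brought in proteins that are not surface receptors, such as ITGB1BP1, a cytoplasmic protein that binds the tail of an integrin beta subunit.

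RNA was sequenced from brain, heart, liver and lung of chickens in 4 groups. At 3300 m these were Tibetan (TC) and lowland chickens (HLC), and at 670 m again Tibetan (LTC) and lowland chickens (LC), with 3 libraries per group and tissue and 48 in all. The sources do not spell out HLC and LTC, which were read from the code's prefix and the altitude. Breed, sex, age and time spent at altitude are not given, altitude cannot be told apart from the place, feed or day of sampling, and it is not stated that the 3 libraries of a group stand for different birds, so the p-values measure the spread between these libraries. Values are FPKM, fragments per kilobase of gene model scaled to the mapped fragments of each library, so levels can be set side by side between genes. The depth of the libraries is unknown. The 48 column sums lay between 452395 and 896066, each library had 8498 to 11325 genes at 1 FPKM or more, no 2 libraries were identical, and within a tissue 2 libraries correlated at 0.936 to 0.989 across genes, which are not independent replicates.

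Classical cadherins join like cells through calcium-dependent binding, and integrins join cells to the matrix. Semaphorins, Slits and ephrins are guidance ligands, read by plexins with neuropilins, by Robo receptors and by Eph receptors, and they act on blood vessels as well as on axons. Neurexins, neuroligins, teneurins, CADM proteins and SLITRK proteins connect the sides of a synapse, and contactin-associated proteins organise the contact between axon and myelin. Several receptor tyrosine phosphatases have cell adhesion domains outside the cell and remove phosphate from tyrosine inside it.

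The tissues were compared first, since the members differed far more between tissues than between groups. The median over 12 libraries was highest in brain for 25 of the 37 members, while lung led for 9, heart for 2 and liver for 1, as the plot of medians by tissue shows. Among the 13353 genes that reached 1 FPKM in at least 3 of the 48 libraries, brain led for 33.57%, lung for 44.79%, heart for 10.5% and liver for 11.14%. Of the members, 35 passed that filter. CLDN8, a claudin of tight junctions, and PTPRQ did not, and their highest values in any library were 1.18 FPKM, in brain, and 0.0655 FPKM, in lung.

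**Figure D1:**
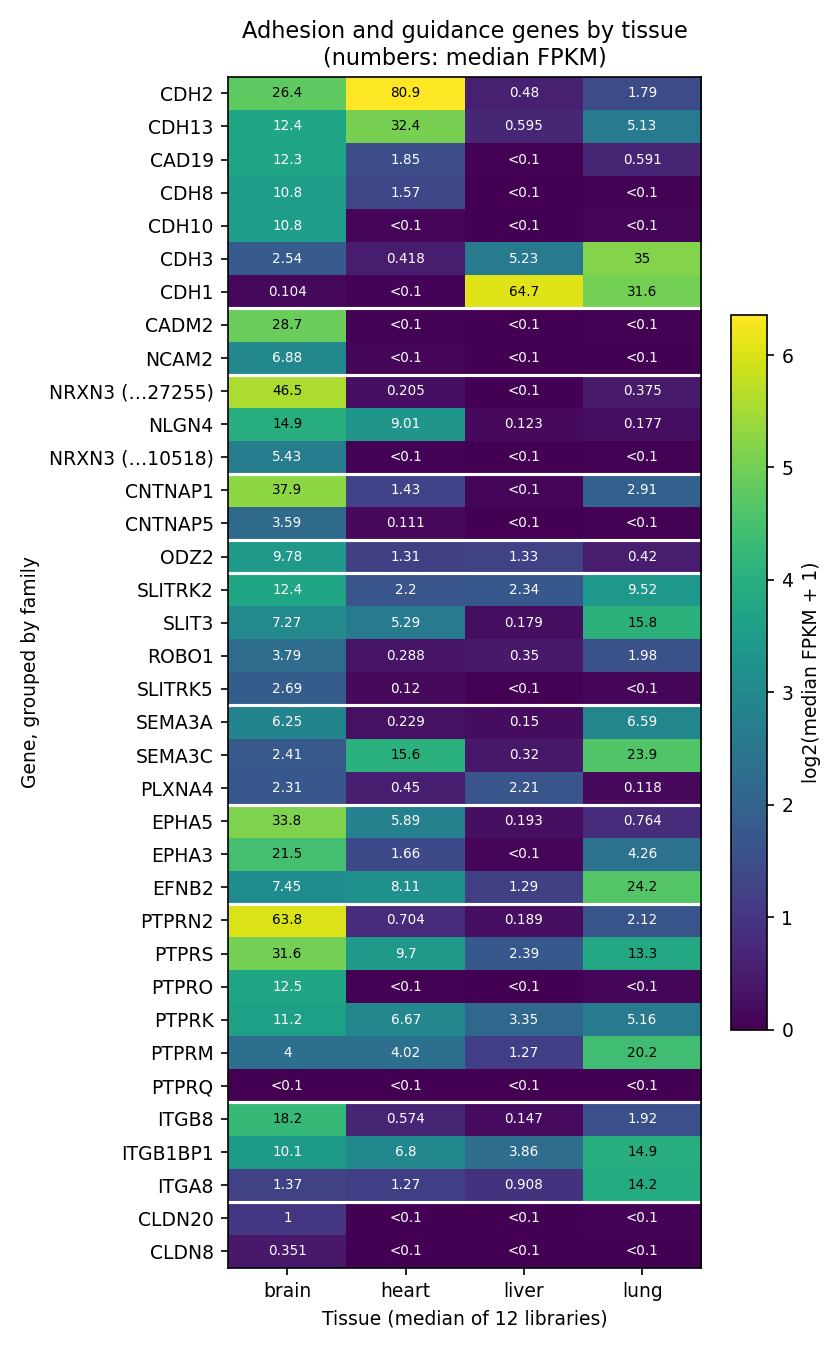
Median FPKM of 36 of the genes over the 12 libraries of brain, heart, liver and lung. Rows are genes grouped by family and separated by white lines, columns are tissues, the colour gives log2(median FPKM + 1) and the number in each cell is the median FPKM. Most rows are brightest in brain, CDH2 and CDH13 in heart, CDH1 in liver, and CDH3, EFNB2, ITGA8, PTPRM, SEMA3C and SLIT3 in lung.

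Against the mean of the other 3 tissues, 34 of the 35 tested members differed in brain, where 84.9% of all genes tested also did. Of these, 29 were higher in brain (49.9% of all genes were) and 5 were lower, and the median log2 difference was 1.98 over the members and 0.17 over all genes. The members lower in brain were CDH1, CDH3, ITGA8, PTPRM and SEMA3C. In liver, 32 members were lower and 2 higher than in the other 3 tissues (70.9% and 18.0% of all genes), and in lung 20 were lower and 13 higher (24.6% and 64.0% of all genes). In heart 24 were lower and 5 higher (65.4% and 20.0% of all genes). After quantile normalization, which shifts the split of all genes, the brain count was 27 members higher and 7 lower (4808 and 6933 of all genes). For heart it was 11 and 21 (4580 and 5667), for liver 3 and 30 (4710 and 6404) and for lung 10 and 23 (5494 and 5650). In 18 members every brain library was above all 36 libraries of the other tissues, which held for 15.5% of all genes, and 5 members stood apart in that way in lung (13.2% of all genes), 1 in heart (3.0%) and 0 in liver (4.27%).

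The synaptic adhesion genes had their highest medians in brain. The larger NRXN3 model (ENSGALG00000027255) had a median of 46.5 FPKM in brain, against 0.205 in heart, 0 in liver and 0.375 in lung. The smaller one (ENSGALG00000010518) had 5.43 FPKM in brain and under 0.1 FPKM elsewhere. Reads of 1 gene may be split between these models, so neither level stands for NRXN3 as a whole. CADM2, an immunoglobulin adhesion molecule of axons and synapses, had 28.7 FPKM in brain, ranging from 22.6 to 44.9, against at most 0.222 FPKM in any library of another tissue. NCAM2, a neural cell adhesion molecule, had 6.88 FPKM in brain, SLITRK5 2.69 and CNTNAP5 3.59, each with under 0.2 FPKM in the other 3 medians. NLGN4, the neuroligin that faces neurexins, was shared with heart. It had 14.9 FPKM in brain and 9.01 in heart, with overlapping ranges, and under 0.2 in liver and lung.

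The cadherins were divided among all 4 tissues. CDH2, the cadherin of neurons and heart muscle, had a median of 80.9 FPKM in heart, against 26.4 in brain, 1.79 in lung and 0.480 in liver, and its 12 heart libraries (31.6 to 111.5) were above all others. On the log2 scale it was higher in heart than in the other 3 tissues by 3.91 (standard error 0.10, adjusted p = 1.4e-29). CDH13, which lacks the cytoplasmic tail of other cadherins, had 32.4 FPKM in heart and 12.4 in brain, and these ranges overlapped. CDH1, the main cadherin of epithelia, had 64.7 FPKM in liver (41.9 to 87.1) and 31.7 in lung (14.7 to 61.8), against 0.104 in brain and 0.0416 in heart. Its log2 difference of 4.20 in liver (standard error 0.10, adjusted p = 6.5e-30) and that of PLXNA4, 0.83, were the 2 above 0 and past the threshold there. CDH3, which lies next to CDH1 on chromosome 11, was instead highest in lung, at 35.0 FPKM, against 5.23 in liver, 2.54 in brain and 0.418 in heart. In lung both genes had their highest value in the same library, HLC replicate 2, with 61.8 FPKM of CDH1 and 74.2 FPKM of CDH3. The neural cadherins CAD19 (12.3 FPKM), CDH8 (10.8) and CDH10 (10.8) were highest in brain, and of these CAD19 and CDH8 also passed the filter in heart, with 1.85 and 1.57 FPKM.

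Among the members, guidance ligands and guidance receptors had different leading tissues. The 4 ligands SEMA3A, SEMA3C, SLIT3 and EFNB2 had their highest median in lung, and the 4 receptors ROBO1, PLXNA4, EPHA3 and EPHA5 in brain. Lung led for 44.79% and brain for 33.57% of all genes. They were not matched as pairs of ligand and receptor. The neuropilin NRP1, a partner gene and not a member, was instead highest in lung. It averaged 44.9 FPKM in Tibetan and 40.0 in lowland lungs, against 3.74 and 2.94 in brains. Its means were 21.8 and 14.5 FPKM in hearts and 7.56 and 6.86 in livers, in the same order. SEMA3C, a secreted semaphorin of heart outflow and lung development, had 23.9 FPKM in lung (18.9 to 31.5), against 15.6 in heart, 2.41 in brain and 0.320 in liver. EFNB2, a membrane ligand that marks arteries, had 24.2 FPKM in lung (17.5 to 49.2), against 8.11 in heart, 7.45 in brain and 1.29 in liver. The lung range did not overlap with the others for SEMA3C and EFNB2. It did for SLIT3, with 15.8 FPKM in lung and 7.27 in brain, and for SEMA3A, with 6.59 in lung and 6.25 in brain. EPHA5 had 33.8 FPKM in brain and 5.89 in heart, and EPHA3 had 21.5 in brain and 4.26 in lung. ROBO1, the Slit receptor, had 3.79 in brain and 1.98 in lung, and these ranges overlapped. PLXNA4, a semaphorin receptor, had 2.31 FPKM in brain and 2.21 in liver, with overlapping ranges.

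Among the receptor tyrosine phosphatases, PTPRN2, a protein of neuroendocrine vesicles, had the highest brain median of any member, 63.8 FPKM (34.1 to 96.0), against 2.12 in lung, 0.704 in heart and 0.189 in liver. PTPRO had 12.5 FPKM in brain and under 0.1 FPKM in the other medians. PTPRS, a receptor for matrix proteoglycans, was present in all tissues, with 31.6 FPKM in brain, against 13.3 in lung, 9.70 in heart and 2.39 in liver. So was PTPRK, with 11.2 FPKM in brain, against 6.67 in heart, 5.16 in lung and 3.35 in liver. PTPRM, an adhesive phosphatase of endothelium, was a lung gene, with 20.2 FPKM there (14.99 to 29.5), against 4.02 in heart, 4.00 in brain and 1.27 in liver. The integrin subunit ITGA8 was likewise highest in lung, at 14.2 FPKM, against 1.37 in brain, 1.27 in heart and 0.908 in liver. ITGB8, which can pair with an alpha subunit to bind latent TGF-beta, was highest in brain, at 18.2 FPKM, against 1.92 in lung.

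Altitude was examined by taking the mean of LTC and LC from that of TC and HLC on the scale of log2(FPKM + 1), a scale that understates the change of low genes. A gene was tested in a tissue if it reached 1 FPKM in at least 3 of its 12 libraries, and it passed the test at an adjusted p under 0.05 over all genes tested there. In liver 8 of the 12 members tested passed, in lung 2 of 20, in brain 2 of 34 and in heart 0 of 19, as the plot of altitude differences shows.

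**Figure D2:**
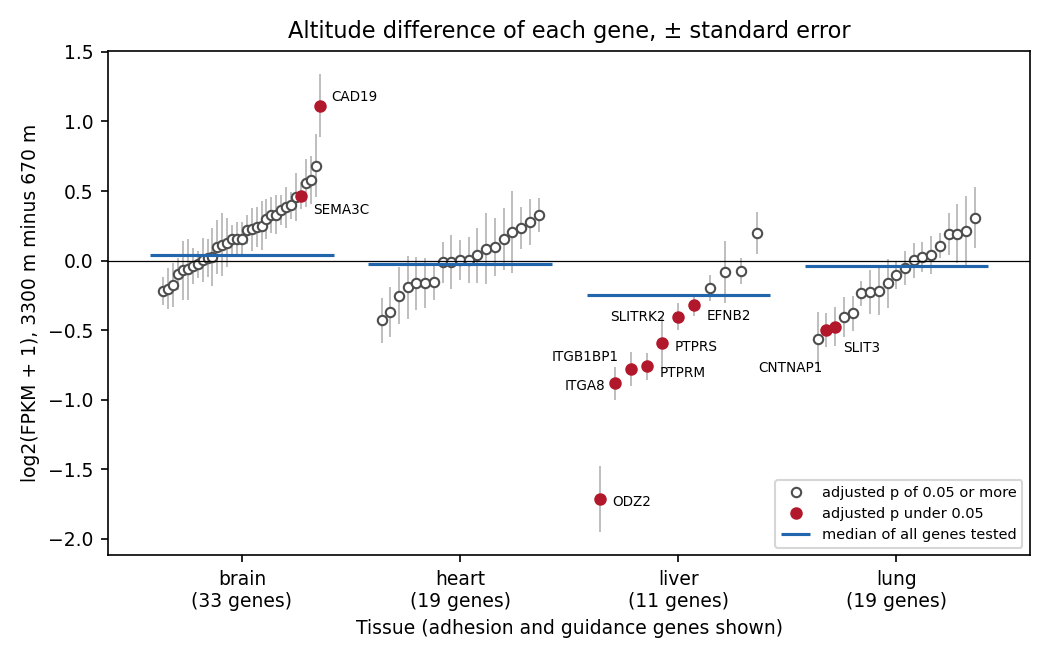
Altitude difference of the tested genes in log2(FPKM + 1), 3300 m minus 670 m, with its standard error, by tissue and sorted within it. Filled points have an adjusted p under 0.05, and the blue line is the median of all genes tested in that tissue. The 7 liver points with names lie below 0 and below the liver line at -0.25, CAD19 and SEMA3C lie above 0 in brain, and CNTNAP1 and SLIT3 lie below 0 in lung.

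In liver, 8 of the 12 tested members were lower at 3300 m and none was higher. Of all 9944 genes tested there, 51.3% passed the test, with 41.6% lower and 9.74% higher, so many calls were made in liver at large. The median log2 difference was -0.50 over the 12 members and -0.25 over all genes. After quantile normalization, which moves the median of all genes to -0.002, 5 members were lower and 1 was higher, beside 1780 genes higher and 1750 lower in place of 969 higher and 4136 lower.

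A synaptic adhesion gene had the largest difference of the 12 in liver. ODZ2 (chromosome 13), an older name of a teneurin, had 0.289, 0.121 and 0.032 FPKM in the 3 TC livers and 0.158, 1.02 and 0.408 in the HLC livers, against 2.60, 5.27 and 2.16 in LTC and 4.26, 5.24 and 1.64 in LC. All 6 livers at 3300 m were below all 6 at 670 m, and the ratio of the mean FPKM at 3300 m to that at 670 m was 0.0957. The log2 difference was -1.72 (standard error 0.24, adjusted p = 0.00026), or -1.47 relative to the median of all genes. SLITRK2 averaged 1.78 ± 0.59 FPKM at 3300 m, against 2.62 ± 0.35 FPKM at 670 m (SD, n = 6 each), with a log2 difference of -0.40 (adjusted p = 0.0051) that was -0.06 after quantile normalization (adjusted p = 0.63).

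The integrin subunit ITGA8 and the integrin-binding protein ITGB1BP1 were lower too. ITGA8 (chromosome 2) had 0.528, 0.424 and 0.286 FPKM in TC and 0.500, 0.487 and 0.911 in HLC, against 2.55, 1.98 and 3.05 in LTC and 1.59, 1.21 and 0.905 in LC. HLC replicate 3 was just above LC replicate 3, and the other 5 livers at 3300 m were below all 6 at 670 m. The log2 difference was -0.88 (standard error 0.12, adjusted p = 0.00023). ITGB1BP1 had 2.79, 2.47 and 3.35 FPKM in TC and 2.91, 2.12 and 3.44 in HLC, against 4.28, 4.46 and 6.49 in LTC and 5.71, 6.79 and 6.04 in LC. The groups by altitude did not overlap, and the log2 difference was -0.78 (standard error 0.12, adjusted p = 0.00051).

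The adhesive phosphatase PTPRM had 0.640, 0.597 and 0.943 FPKM in TC and 0.411, 0.712 and 0.644 in HLC, against 1.60, 1.69 and 1.76 in LTC and 1.73, 2.24 and 1.79 in LC. Here too every liver at 3300 m was below every liver at 670 m, with a log2 difference of -0.76 (standard error 0.10, adjusted p = 0.00016). PTPRM, ODZ2 and ITGB1BP1 were the 3 of 12 tested members without overlap, all lower at 3300 m, beside 14.2% of all liver genes. Of these, PTPRM and ODZ2 passed the filter through the livers at 670 m. PTPRS differed by -0.59 (adjusted p = 0.021), a call lost after quantile normalization (adjusted p = 0.29), after upper quartile scaling (adjusted p = 0.059) and without LTC replicate 1 (adjusted p = 0.051). The ligand EFNB2 averaged 1.02 FPKM at 3300 m, against 1.51 at 670 m, and differed by -0.32 (adjusted p = 0.0074), but its difference was 0.02 after quantile normalization (adjusted p = 0.91). CDH1, CDH3, PLXNA4 and PTPRK did not pass, with log2 differences of -0.08, 0.20, -0.08 and -0.20.

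**Figure D3:**
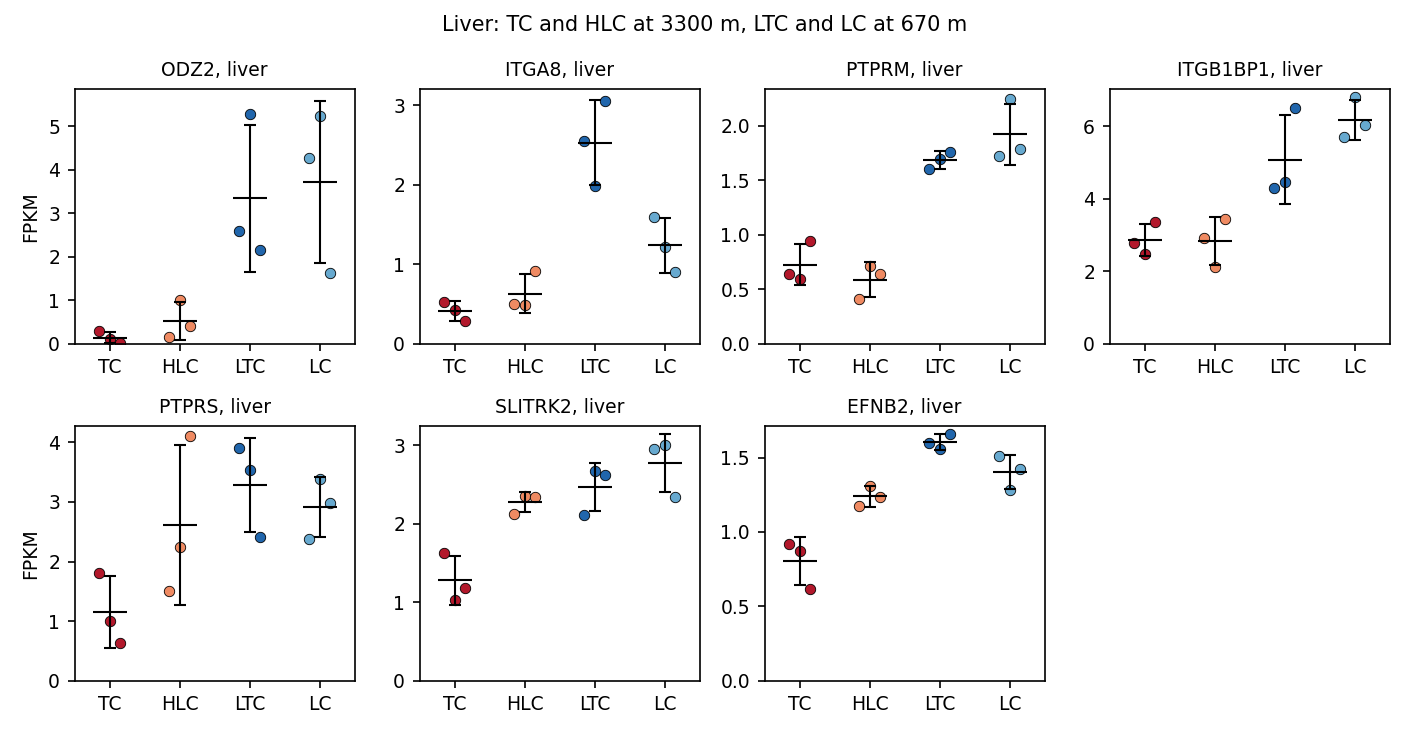
FPKM of 7 genes that were lower at 3300 m in liver, 1 panel per gene. Points are the 3 libraries of TC and HLC (3300 m) and of LTC and LC (670 m), the long bar is the mean and the short bars mark 1 SD. The points of TC and HLC lie below those of LTC and LC without overlap for ODZ2, PTPRM and ITGB1BP1, with ODZ2 at or under 1.02 FPKM at 3300 m.

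The chicken types were also taken apart in liver. These comparisons share groups with each other, so they are given side by side. For TC minus LTC 10 of the 12 tested members passed, all lower (41.3% of all genes), and for HLC minus LC 3 passed, all lower (11.9% of all genes). For TC minus LTC the median log2 difference was -0.624 over the members and -0.363 over all genes. For HLC minus LC these medians were -0.185 and -0.146. After quantile normalization 4 members passed for TC minus LTC (1543 genes higher and 1674 lower, in place of 933 and 4104) and 3 for HLC minus LC (745 and 715, in place of 467 and 1182). ODZ2 was past the threshold in both, at -1.86 in Tibetan and -1.57 in lowland chickens, as were PTPRM at -0.64 and -0.88 and ITGB1BP1 at -0.64 and -0.92. The lowland call of ODZ2 was lost without LC replicate 2 (adjusted p = 0.051), and after quantile normalization the Tibetan calls of PTPRM (adjusted p = 0.25) and ITGB1BP1 (adjusted p = 0.42). CDH1 (-0.38, adjusted p = 0.033) and PTPRK (-0.37, adjusted p = 0.032) passed for TC minus LTC close to the threshold. Relative to the median of all genes they were at -0.012 and -0.008, so they lay with the genes at large. The call of CDH1 was lost without LTC replicate 1 or 2 or TC replicate 1 or 2 (adjusted p of up to 0.11), and that of PTPRK without any 1 LTC library or TC replicate 2 or 3 (up to 0.089). Both were also lost with upper quartile scaling, all 48 libraries in 1 fit or the replicate block, and PTPRK was at 0.13 after quantile normalization, in the opposite direction. ITGA8 differed by -1.31 in Tibetan chickens (adjusted p = 0.00022) and by -0.45 in lowland chickens (adjusted p = 0.086). The difference between these, the interaction, was -0.86 (standard error 0.24, adjusted p = 0.036), the 1 member of 12 past the threshold, beside 14.0% of all liver genes, 10.1% lower and 3.87% higher (329 higher and 361 lower after quantile normalization, in place of 385 and 1005). It was lost with a pseudocount of 0.1 in place of 1, with the replicate block (adjusted p = 0.058) and after quantile normalization (adjusted p = 0.096). Leaving out any 1 of 8 libraries also ended it, with an adjusted p of up to 0.085 without LC replicate 3. The remaining 4, without HLC replicate 1, LC replicate 1, LTC replicate 2 or TC replicate 1, kept it.

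Markers of other cells moved with altitude in the same livers. Of the mesenchymal markers, 3 of 4 (COL5A1, SPARC and MMP2) were lower at 3300 m, as were 4 of 4 tested leukocyte markers. Of all liver genes 41.6% were lower and 9.74% higher, a split that quantile normalization turned to 1780 higher and 1750 lower. The summed FPKM of the mesenchymal markers was 42.4 to 53.9 in TC and 45.2 to 56.9 in HLC, against 98.1 to 115 in LTC and 43.7 to 67.5 in LC, so the LTC livers stood apart. Of the endothelial markers FLT1 and FLT4 were lower, while RAMP2 did not pass (0.44, adjusted p = 0.055), and their sum was 48.1 to 94.7 in TC and 28.6 to 47.3 in HLC, against 36.9 to 45.9 in LTC and 31.0 to 41.1 in LC. Of 3 epithelial markers tested KRT19 and ELF3 were higher and ESRP2 lower, and the sum of the list was 13.7 to 19.2 in TC and 11.2 to 17.6 in HLC, against 26.8 to 28.0 in LTC and 16.3 to 25.1 in LC. The sum of the 6 leukocyte markers was 8.29 to 12.9 at 3300 m and 13.5 to 23.7 at 670 m. Hepatocyte markers summed to 13020 to 16060 FPKM in TC, mostly FABP1, against 3807 to 4240 in HLC, 3290 to 4808 in LTC and 4096 to 4491 in LC. Neuronal and heart muscle markers were at most 2.0 and 0.572 FPKM in sum in any liver. The part of these cells in the liver differences was not tested, and in bulk tissue fewer cells of a type and less RNA per cell cannot be told apart.

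In lung, 2 of 20 tested members passed for altitude, both lower at 3300 m (17.1% of all genes passed, 11.6% lower). The median log2 difference was -0.13 over the members and -0.04 over all genes, and quantile normalization gave 900 genes higher and 1005 lower in place of 646 higher and 1340 lower. CNTNAP1 (chromosome 27), the axonal partner of contactin beside the node of Ranvier, had 1.78, 1.25 and 1.23 FPKM in TC lungs and 3.29, 3.78 and 2.53 in HLC lungs, against 4.25, 5.32 and 3.95 in LTC and 3.46, 2.19 and 2.448 in LC. The TC lungs were below all 9 others, while the HLC lungs lay within the range at 670 m. The altitude difference was -0.50 (standard error 0.12, adjusted p = 0.021), a call lost after quantile normalization (adjusted p = 0.058) and without LTC replicate 2 (adjusted p = 0.057). SLIT3 (chromosome 13), a secreted ligand of Robo receptors, had 20.1, 14.6 and 14.3 FPKM in TC and 14.2, 9.37 and 12.01 in HLC, against 15.97, 21.2 and 24.0 in LTC and 20.2, 15.7 and 21.3 in LC. Only TC replicate 1 reached into the range at 670 m. Its difference was -0.48 (standard error 0.14, adjusted p = 0.038), and the call held without HLC replicate 1, LC replicate 2, LTC replicate 1 or TC replicate 1 but was lost without any 1 of the other 8 libraries, with an adjusted p of up to 0.092 without LTC replicate 3. The call of SLIT3 was also lost without the filter and with all 48 libraries in 1 fit. ROBO1, its receptor, differed by -0.38 (adjusted p = 0.062) and ITGA8 by -0.57 (adjusted p = 0.067), so neither passed.

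The altitude difference in lung depended on chicken type for 2 of 20 members, beside 0.509% of all genes (29 higher and 30 lower, or 50 and 30 after quantile normalization). PTPRM had 29.3, 29.5 and 26.1 FPKM in TC lungs and 19.7, 14.99 and 17.1 in HLC lungs, against 16.7, 17.7 and 19.5 in LTC and 20.8, 21.7 and 27.4 in LC. The TC lungs were above all others except LC replicate 3. PTPRM was higher in TC than in LTC (0.63, adjusted p = 0.014, lost without LTC replicate 2 or TC replicate 2 with an adjusted p of up to 0.057), lower in HLC than in LC without passing (-0.41, adjusted p = 0.10), and the interaction was 1.04 (standard error 0.18, adjusted p = 0.037). In liver the same gene was lower at 3300 m in both chicken types. CNTNAP1 went the other way in lung, with -1.19 for TC minus LTC (adjusted p = 0.0037), 0.19 for HLC minus LC (adjusted p = 0.58) and an interaction of -1.37 (standard error 0.25, adjusted p = 0.042). With the replicate block the interaction of PTPRM had an adjusted p of 0.088 and that of CNTNAP1 of 0.073. The call of PTPRM was lost without any 1 of 10 libraries (all but HLC replicate 1 and LC replicate 1) and that of CNTNAP1 without any 1 of 11 (all but LC replicate 1), with an adjusted p of up to 0.12 and 0.13, each without LTC replicate 2. For TC minus LTC, ROBO1 (-0.66, adjusted p = 0.036) and PTPRN2 (-0.70, adjusted p = 0.048) were also lower, which made 3 members lower and 1 higher (8.66% and 3.46% of all genes, or 1 and 1 beside 575 and 590 genes after quantile normalization, in place of 1005 and 401), but ROBO1 was lost without any 1 TC or LTC library (adjusted p of up to 0.13) and PTPRN2 without any 1 of 9 libraries (up to 0.16), all but HLC replicate 2, LTC replicate 1 and TC replicate 1. The call of PTPRN2 was also lost with a pseudocount of 0.1, without the filter and after quantile normalization or upper quartile scaling. It was lost as well with all 48 libraries in 1 fit and with the replicate block. For HLC minus LC none passed (3.89% of all genes, 2 members at an unadjusted p under 0.05).

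Other cell markers moved in lung as well. All 4 mesenchymal markers were lower at 3300 m, with a summed FPKM of 353 to 684 against 641 to 1639 at 670 m. So were 5 of 6 leukocyte markers, with sums of 18.7 to 32.6 against 40.7 to 55.0. Of all lung genes 11.6% were lower and 5.57% higher. Of the neuronal markers STMN2 was lower by a log2 difference of -2.18 (adjusted p = 0.0013), while TUBB3 and TBR1 are not given singly. The sum of these 3 neuronal markers was 8.20 to 21.1 in TC and 9.60 to 10.2 in HLC, against 47.7 to 63.5 in LTC and 17.7 to 53.1 in LC. Endothelial markers summed to 226 to 303 in TC and 227 to 390 in HLC, against 278 to 314 in LTC and 320 to 433 in LC. Epithelial sums were 110 to 139 in TC and 79.4 to 131 in HLC, against 70.7 to 133.5 in LTC and 39.9 to 96.2 in LC. Heart muscle markers summed to 0.590 to 33.4 FPKM in HLC lungs and 0.906 to 2.30 in TC lungs. At 670 m the heart muscle sums were 0.681 to 0.909 in LTC and 0.552 to 0.803 in LC. The part of all these cells in the values of CNTNAP1, SLIT3 and PTPRM was not tested.

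**Figure D4:**
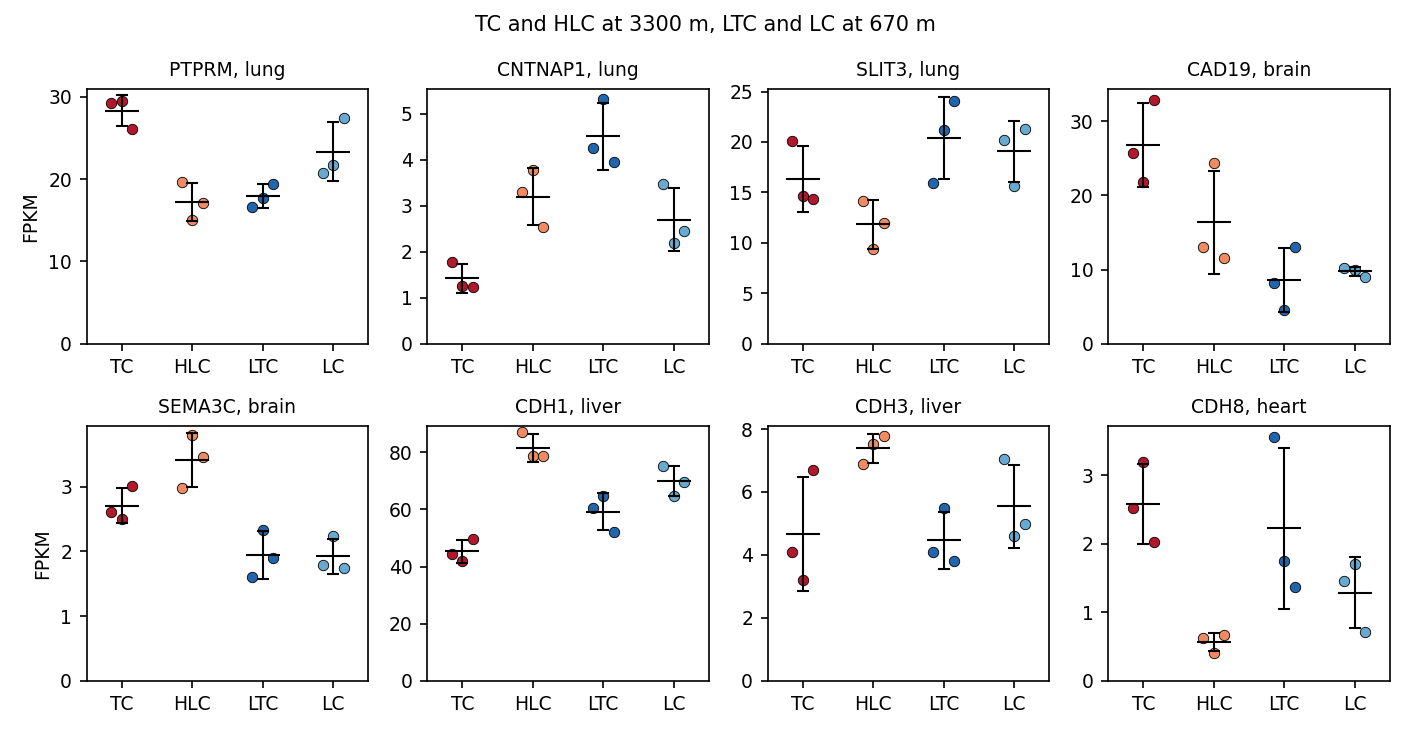
FPKM of genes outside the liver altitude result, 1 panel per gene and tissue. Points are the 3 libraries of TC and HLC (3300 m) and of LTC and LC (670 m), the long bar is the mean and the short bars mark 1 SD. TC lungs have the highest mean of PTPRM and the lowest values of CNTNAP1. Brains at 3300 m are higher for SEMA3C without overlap and for CAD19 with overlap. TC livers are lowest for CDH1, at 41.9 to 49.7 FPKM.

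In brain, 2 of 34 tested members passed for altitude, both higher at 3300 m (2.26% of all genes passed, 1.97% higher). The median log2 difference was 0.19 over the members and 0.04 over all genes. It was 0.14 and -0.01 after quantile normalization, and 0.13 and -0.02 after upper quartile scaling. Quantile normalization gave 191 genes higher and 61 lower, and upper quartile scaling 145 higher and 50 lower, in place of 229 and 34. CAD19 (chromosome 2), a cadherin known from Schwann cell precursors in rat, had 25.8, 21.8 and 32.9 FPKM in TC brains and 13.1, 24.4 and 11.6 in HLC brains, against 8.27, 4.56 and 13.1 in LTC and 10.3, 10 and 9.02 in LC. The TC brains were above all 6 at 670 m, and of the HLC brains only replicates 1 and 3 lay within that range. The difference was 1.11 (standard error 0.23, adjusted p = 0.034). SEMA3C (chromosome 1) had 2.62, 2.50 and 3.02 FPKM in TC and 2.98, 3.81 and 3.47 in HLC, against 1.60, 2.33 and 1.90 in LTC and 1.79, 2.23 and 1.75 in LC. All 6 brains at 3300 m were above all 6 at 670 m, with a difference of 0.47 (standard error 0.10, adjusted p = 0.034).

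Both brain calls were near the threshold. With the replicate number as a block over all 4 groups, the adjusted p was 0.068 for CAD19 and 0.054 for SEMA3C, and 0 members passed. Same-numbered TC and LTC brains deviated together, while TC and HLC brains did not (r -0.655 to -0.05). The block therefore does not model the TC and LTC pairs alone. Taken apart in the main fit, which does not use these pairs, TC minus LTC gave 0 of 34 members (0.379% of all genes, 0.319% higher) and HLC minus LC 0 (0.146% of all genes), with 11 and 2 members at an unadjusted p under 0.05 beside 1391 and 1560 of 11614 genes. A paired comparison of TC and LTC alone was not made. CAD19 was lost without any 1 of 8 libraries (all but HLC replicates 1 and 3 and LTC replicates 2 and 3) and SEMA3C without any 1 of 9 (all but HLC replicates 1 and 3 and LTC replicate 2), with an adjusted p of up to 0.086 and 0.089, each without TC replicate 3. CNTNAP1 was the other member without overlap, with 38.4 to 45.3 FPKM at 3300 m, against 24.7 to 37.5 at 670 m, but did not pass (0.36, adjusted p = 0.11). Of all genes, 2.05% had 6 brains at 3300 m above the other 6. Epithelial KRT19 was higher at 3300 m in brain (0.86, adjusted p = 0.046), 1 of 4 epithelial markers tested, with sums of 6.77 to 16.3 FPKM at 3300 m and 5.36 to 10.3 at 670 m. Astrocyte and neuron markers had overlapping sums, of 203 to 370 and 489 to 882 FPKM at 3300 m and of 161 to 446 and 457 to 655 at 670 m. No Schwann cell or oligodendrocyte marker was available, and the part of such cells was not tested.

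In heart, 0 of 19 tested members passed for altitude (0.0193% of all genes), and 2 members had an unadjusted p under 0.05 beside 562 of 10376 genes. For TC minus LTC and HLC minus LC the counts were 0 as well (0% and 0.0386% of all genes), with 2 members each at an unadjusted p under 0.05. At 3300 m 1 member differed between chicken types in heart. CDH8, a cadherin of neural circuits, had 2.52, 3.19 and 2.02 FPKM in TC hearts and 0.628, 0.408 and 0.659 in HLC hearts, while LTC hearts had 3.56, 1.75 and 1.36 and LC hearts 1.45, 1.70 and 0.705. It was higher in TC than in HLC by 1.18 (standard error 0.27, adjusted p = 0.033), the 1 member past the threshold (6.55% of all genes, 0.675% higher and 5.88% lower). The call was lost with the replicate block and without the filter. It was also lost without TC replicate 1 or 2 or HLC replicate 1 or 2, with an adjusted p of up to 0.12 without HLC replicate 2. Quantile normalization turned the split of all genes to 121 higher and 45 lower, in place of 70 and 610. The abundant CDH2 had 111.5, 87.0 and 99.8 FPKM in TC hearts and 31.6, 44.4 and 68.4 in HLC hearts, and did not pass (1.09, adjusted p = 0.060). Heart muscle markers summed to 770 to 1040 FPKM in TC and 516 to 599 in HLC, and endothelial markers to 34.6 to 59.0 in TC and 74.98 to 126 in HLC. Mesenchymal sums were 227.6 to 307 in TC and 273.9 to 484.5 in HLC. Leukocyte sums were 2.50 to 4.58 in TC and 2.46 to 33.2 in HLC. Neuronal markers were low, with sums of 0.613 to 1.23 FPKM in TC and 4.01 to 6.86 in HLC, which were higher. The part of these cells was not tested.

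Chicken type was examined by taking the mean of HLC and LC from that of TC and LTC. In the fits by tissue 1 member passed, in liver, and with all 48 libraries in 1 fit 2 passed in liver. CDH1 in liver had 44.5, 41.9 and 49.7 FPKM in TC and 60.6, 64.9 and 52.2 in LTC, against 87.1, 78.7 and 78.8 in HLC and 75.2, 64.6 and 69.8 in LC. The mean was 52.3 FPKM in Tibetan and 75.7 FPKM in lowland livers, a ratio of 0.69, and only LTC replicate 2 was just above the lowest lowland liver. The log2 difference was -0.54 (standard error 0.09, adjusted p = 0.011) in 1 of 12 tested members, beside 2.39% of all genes higher and 8.58% lower, and -0.43 relative to the median of all genes. No alternative and no omitted library ended this call, with adjusted p between 0.011 and 0.032 on leaving out single libraries. Quantile normalization gave 263 genes higher and 285 lower in place of 238 and 853, and left CDH1 at -0.52 (adjusted p = 0.017). At 3300 m the difference, TC minus HLC, was -0.83 (adjusted p = 0.0017), and at 670 m, LTC minus LC, it was -0.24 (adjusted p = 0.69). The interaction of -0.60 had an adjusted p of 0.054, so the altitudes were not shown to differ. From the epithelial list KRT19 went the other way, at 0.60 (adjusted p = 0.026). So did FABP1, a hepatocyte marker, at 0.87 (adjusted p = 0.0061). The other markers of these lists are not given here for chicken type. The hepatocyte sum, mostly FABP1, was 13020 to 16060 FPKM in TC, against 3807 to 4240 in HLC. At 670 m it was 3290 to 4808 in LTC and 4096 to 4491 in LC, with overlap. Epithelial sums were 13.7 to 19.2 in TC, 26.8 to 28.0 in LTC, 11.2 to 17.6 in HLC and 16.3 to 25.1 in LC. The part of these cells in the values of CDH1 was not tested.

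The neighbouring CDH3 had 4.10, 3.21 and 6.71 FPKM in TC and 4.10, 5.49 and 3.80 in LTC livers, against 6.88, 7.53 and 7.77 in HLC and 7.04, 4.61 and 4.97 in LC. It also lay lower in Tibetan livers, with overlap, and did not pass (-0.43, adjusted p = 0.087). SLITRK2 did not pass for chicken type (-0.33, adjusted p = 0.052) but was lower for TC minus HLC (-0.53, adjusted p = 0.014), where 2 of 12 members passed, both lower (24.0% of all genes), and that call was lost without TC replicate 2 (adjusted p = 0.059) and after quantile normalization (adjusted p = 0.12), which gave 927 genes higher and 1010 lower in place of 728 and 2384. In the other tissues 0 members passed for chicken type, of 34 in brain (0.00861% of all genes), 19 in heart (0.00964%) and 20 in lung (0.0431%), with 2, 6 and 2 members at an unadjusted p under 0.05 beside 526, 1477 and 1709 genes. With all 48 libraries in 1 fit 5 members passed in heart. In the fit of heart alone, where 0 passed, EPHA3 (0.80) and CDH8 (0.83) came nearest, each with an adjusted p of 0.20. For TC minus HLC, PTPRM in lung was the 1 member higher (0.69, adjusted p = 0.046, 0.215% of all genes), lost without any 1 of 11 libraries (all but LC replicate 3, adjusted p of up to 0.15). This call of PTPRM was also lost with a pseudocount of 0.1, without the filter, without the trend and with the replicate block. Brain had 0 for TC minus HLC (0.00861% of all genes, 4 members at an unadjusted p under 0.05). For LTC minus LC no member passed in any tissue, and of all genes 0% did in brain and heart, 0.0402% in liver and 0.069% in lung, with 1, 3, 1 and 5 members at an unadjusted p under 0.05 beside 576, 1289, 874 and 1550 genes, in the same order. The interaction passed for no member in brain (0.0344% of all genes, 2 unadjusted) or heart (2.79% of all genes, 3 unadjusted), where EPHA5 came nearest, at -0.87 (adjusted p = 0.066).

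A list of 30 partner genes of these receptors was examined alongside them. In liver 9 of 17 tested partners were lower at 3300 m and 2 were higher, near the 41.6% and 9.74% of all genes. Among those lower were CTNND1 (-0.62, adjusted p = 0.0012), the catenin that holds cadherins at the membrane, TRIO (-0.56, adjusted p = 0.00087), an exchange factor that acts below guidance receptors, and LAMC1 (-0.70, adjusted p = 0.0016), a laminin chain of the basement membrane. RSU1, part of the complex that links integrins to actin, went the other way, with 14.5 to 30.0 FPKM at 3300 m and 6.29 to 9.36 at 670 m and a difference of 1.40 (standard error 0.14, adjusted p = 5e-05) that was 1.57 after quantile normalization. The tight junction gene MARVELD3 was higher too (0.55, adjusted p = 0.0045). In the same tissue LAMC1 (-0.99), TRIO (-0.70) and DLG3, a synaptic scaffold protein (-1.07), passed for the interaction, 3 of 17 beside 14.0% of all genes, and each was lost without any 1 of at least 9 libraries.

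In lung 4 of 24 tested partners were lower at 3300 m and 2 were higher, beside 11.6% and 5.57% of all genes. LAMC1 had 25.6 to 32.6 FPKM at 3300 m and 37.8 to 68.2 at 670 m, a difference of -0.78 (adjusted p = 0.0067), while CTNND1 was higher (0.42, adjusted p = 0.0077), a call lost with all 48 libraries in 1 fit (adjusted p = 0.092). FAT2, an atypical cadherin, was lower (-0.73, adjusted p = 0.025), a call lost without HLC replicate 2, LTC replicate 2 or 3 or TC replicate 2 (up to 0.066). So was TENM4, a teneurin (-0.47, adjusted p = 0.029), a call lost without any 1 of the same 4 libraries, HLC replicate 3 or LC replicate 1 (up to 0.074). Quantile normalization also ended the call of TENM4. In brain 1 of 29 partners passed, CBLN4, a secreted cerebellin that bridges neurexins and their partners across the synapse, with 3.40 to 10.6 FPKM at 3300 m and 0.336 to 1.94 at 670 m. Its difference of 1.75 (standard error 0.24, adjusted p = 0.0070) held without any single library. In heart 0 of 17 partners passed for altitude, and none passed for chicken type in any tissue.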

How the data were processed

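The authors deposited FPKM values for 17108 Ensembl genes in 48 libraries. Per the submitters' processing notes they used TopHat and Cufflinks 2.2.1 on galGal4, with RNA from TRIzol and an Illumina TruSeq kit. The annotation release is not given in the sources used here, nor are the options. FPKM keeps no read counts, so no counting error can be given and no count model was used. Symbols came from the readable part of the study's supplementary lists of positively selected genes (1184 symbols, all in the table).

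Genes that reached 1 FPKM in 3 or more of a tissue's 12 libraries were fitted in limma 3.58.1 (R 4.3.3) to log2(FPKM + 1), with 1 mean per group and a variance trend. Tissues were compared in 1 fit of 48 libraries with 16 means. Tests were 2-sided, with Benjamini-Hochberg adjustment over all genes of the fit and a threshold of 0.05. The interaction takes the altitude difference of lowland from that of Tibetan chickens. The fit was tested on simulated data. The members, the partner list and the marker lists were chosen with earlier results of these data known.

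The totals include 1 member that is not reported here by name or in the figures. Every other member past the threshold for altitude, chicken type or interaction is named, with values per library for the 4 largest in each tissue and comparison, and up to 4 partners by smallest adjusted p. Genes outside this rule (CDH8 and CDH2 in heart, CNTNAP1 in brain, CDH3 in liver, MARVELD3, and members beside the threshold) were chosen after their values were seen. Within a tissue, same-numbered libraries of 2 groups deviated together, with all 3 correlations over 0.1, in brain TC and LTC alone (r 0.373 to 0.452). The numbers were taken to pair those samples, on the data alone. The main fits did not use this pairing, and the replicate block gave each number 1 effect over all 4 groups. Between tissues, same-numbered libraries of a group had median correlations of 0.0975 to 0.1435, with 6 to 10 of 12 pairs over 0.1 by pair of tissues, and whether they share a bird is not stated. The 48-library fit takes them as independent, and with a block for group and number 34 members passed for brain, 30 for heart, 34 for liver and 33 for lung.

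The alternatives were a pseudocount of 0.1, no filter, a mean FPKM of at least 5, quantile normalization, upper quartile scaling, no trend, all 48 libraries in 1 fit, the replicate block and leaving out each library.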

Additional observations from a re-analysis of the deposited data

Results flagged for a closer look

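The altitude difference was not the same in Tibetan and lowland chickens for 6 genes, by the test of the interaction in limma. Among the members these were PTPRM in lung (1.042), CNTNAP1 in lung (-1.373) and ITGA8 in liver (-0.86), and among the partners DLG3 (-1.07), LAMC1 (-0.992) and TRIO (-0.703), all in liver. In liver 1 of 12 members and 3 of 17 partners passed, near the 14.0% of all genes. In lung 2 of 20 members and 0 of 24 partners passed, beside 0.509% of all genes. LAMC1 differed by -1.19 in Tibetan and -0.20 in lowland livers, TRIO by -0.91 and -0.21, and DLG3 by -0.76 and 0.31. The differences of PTPRM and CNTNAP1 in lung and of DLG3 in liver were above 0 in 1 chicken type and below 0 in the other. Each of the 6 lost its call on leaving out at least 8 of the 12 libraries in turn, with adjusted p of up to 0.11 for DLG3 and 0.082 for LAMC1 and TRIO.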

How the results depend on the processing

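Over 81 results for single genes, the alternatives gave the same direction and side of the threshold in 1234 fits, the same direction without passing in 334 and the opposite direction in 2, both after quantile normalization in liver: EFNB2 for altitude (0.015) and PTPRK for TC minus LTC (0.127). With the replicate block 0 members passed in brain for altitude and 0 in liver and lung for the interaction. Without the filter the members past the threshold were 1 in brain, 14 in liver and 1 in lung for altitude, and 2 in liver and 0 in lung for the interaction. At a mean of at least 5 FPKM, which leaves fewer genes tested, they were 1, 0 and 1 for altitude in brain, liver and lung, 0 in liver and 1 in lung for the interaction, and 20, 17, 20 and 19 for brain, heart, liver and lung against the other tissues. All 48 libraries in 1 fit gave 7 for altitude in brain, 5 for chicken type and 4 for the interaction in heart, and 2 for chicken type in liver. A pseudocount of 0.1 gave 2 for chicken type and 0 for the interaction in liver, no trend gave 2 for the interaction in liver, upper quartile scaling gave 1 for altitude in brain, and quantile normalization gave 1 for altitude in lung.

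Leaving out 1 library gave, for altitude, 0 to 3 members in brain, 7 to 9 in liver and 0 to 4 in lung. It gave 1 to 2 for chicken type in liver, and for the interaction 0 to 1 in liver and 0 to 2 in lung. The depth is unknown, and ODZ2, ITGA8, PTPRM and EFNB2 lie near 1 FPKM in liver. The cause of these changes was not tested.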

Other observations

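Some libraries held the extreme values of many members. In brain, LTC replicate 3 held the lowest value of 15 of the 34 tested members, beside 17.7% of all 11614 genes tested, and TC replicate 2 the highest of 14, beside 12.7%. In LTC replicate 3 PTPRS had 16.2 FPKM and PLXNA4 0.896, and in TC replicate 2 PTPRS had 39.5 FPKM and EPHA5 56.2. Without LTC replicate 3, 1 member passed for altitude in brain. In heart, LC replicate 3 was lowest for 12 of 19 members, beside 28.2% of all genes, with 8.12 FPKM of CDH13. In liver, TC replicate 3 was lowest for 6 of 12 members, beside 13.1% of all genes, and TC replicate 2 for 3, beside 33.0%, and TC replicate 2 had the lowest median correlation with the other livers (0.9546). The altitude count in liver lay between 7 and 9 members on leaving out 1 library.

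In lung, HLC replicate 3 had 49.2 FPKM of EFNB2, against 26.7 and 21.8 in the other HLC lungs, 17.5 to 18.2 in TC, 28.2 to 34.5 in LTC and 18.7 to 29.7 in LC. CDH10, a brain cadherin, reached 2.31 FPKM in LTC replicate 3 and 0.814 in LTC replicate 2 of lung, while the lung median was 0.0632.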
